A study of Mus musculus with 51 samples.

Results

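The imprinted Dlk1-Meg3-Dio3 locus of mouse chromosome 12 was followed across 13 clonal stromal lines. Its 6 genes described here are Dlk1, Meg3, Rtl1, Rian, Mir377 and Dio3, chosen by symbol out of 19938 genes with a probe set naming a single gene. Each of the 6 had 1 such probe set. The choice was made with differences already known for these genes in the UG26 pair of lines, and for Dlk1 in both fetal liver pairs of confluent cultures. Those differences are therefore given as descriptions, with no test. Between Dlk1 and Dio3 the array measured 48 transcripts with an unambiguous probe set, out of 103 annotated by RefSeq. They were 40 miRNA genes, 3 small nucleolar RNAs (snoRNAs), Meg3, Rian, Rtl1, Dlk1 and Dio3.

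Total RNA was hybridised to arrays in 17 groups of 3. Each line carries a label for its support of blood stem and progenitor cells in culture. The aorta-gonad-mesonephros region (AGM) of (CBAxC57BL/10)F1 embryos at day 11 gave the supportive clones AM14-1C4, AM30-3F4 and UG26.1B6 and the less supportive clone UG26.3B5. C57BL/6 fetal liver at embryonic day 14.5 gave the supportive clones 2012 and AFT024 and the non-supportive clones AFT011, BFC and BFC012. Adult bone marrow gave BMC9 (supportive) and BMC10 (less supportive) of the H2ts6 background, and 14F1-1 (supportive) of BALB/c. OP9, a supportive line of fetal calvaria, has the (C57BL/6xC3H)F2-op/op background. AFT024 and BFC012 were also profiled as CD45-negative stroma sorted after 4 days, cultured either with c-Kit+Sca1+Lin- (KLS) cells of bone marrow or alone. Every line is 1 clone or cell line, so a difference between lines of unlike origin or label is a difference between those clones.

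The deposited log2 signals had been normalised in 4 separate sets, and levels were compared only within a set. Set 1 held the UG26 lines, AFT024, BFC012 and the BMC lines. Set 2 held OP9 and BFC, set 3 the sorted stroma, and set 4 the AM lines, 14F1-1, 2012 and AFT011. Arrays of 1 group correlated at 0.972 or more among sorted samples and at 0.991 or more elsewhere. No label says that replicates were grown separately; the p-values below therefore reflect array-to-array spread that may be technical. Stromal markers fixed for the check were Pdgfra, Pdgfrb, collagens, Cdh11, Prrx1 and Vcam1. Their group averages ran from 8.89 to 10.79 log2 units in set 1 and from 7.60 to 7.77 in set 3. In set 4 they were 11.13 in AM14-1C4, 10.89 in 2012, 10.10 in AM30-3F4, 9.86 in 14F1-1 and 9.70 in AFT011. In set 2 they were 8.02 in OP9 and 6.71 in BFC. The leukocyte antigen gene Ptprc stayed between 4.23 and 4.44 on every sorted array, with or without KLS cells. In RNA from cultures, fewer cells of a type and less RNA per cell cannot be told apart.

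At this locus the parental copies are used unequally. Dlk1, Rtl1 and Dio3 are expressed mainly from the paternal chromosome. Meg3, Rian and the long run of miRNAs and snoRNAs, which are thought to be processed from long maternal transcripts, come from the maternal chromosome. DLK1 is a delta-like protein with epidermal growth factor repeats, found on the surface and as a shed form, that restrains adipocyte differentiation and marks fetal liver progenitors. Maternal Meg3 expression is known to help preserve fetal liver hematopoietic stem cells in mice. Arrays of this kind do not tell the parental copies apart.

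The sequence around an annotated Meg3 start is shown because Meg3 and its downstream transcripts moved together in the AGM lines. The RefSeq table (GRCm38.p6) gives this window of 300 bases at chr12:109540746-109541045, plus strand. It runs from 250 bases before that start to 50 after it. Meg3 has a further annotated start, whose window is described below. Capitals mark a cyclic AMP response element and a TATA box.
Meg3 start window: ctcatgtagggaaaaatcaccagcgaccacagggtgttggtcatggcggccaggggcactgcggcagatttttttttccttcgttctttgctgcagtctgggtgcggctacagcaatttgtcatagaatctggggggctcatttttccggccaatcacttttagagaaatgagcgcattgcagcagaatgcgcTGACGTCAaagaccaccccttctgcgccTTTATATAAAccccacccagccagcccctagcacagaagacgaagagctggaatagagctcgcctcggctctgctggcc
The letters searched were TGACGTCA for the response element and TATAAA for the TATA box, on both strands. The response element lies at base 194 of the window, and TATAAA matches overlap on both strands from base 222. TGACGTCA occurs in 588 of 32851 such windows (1.79%) and TATAAA in 4473 (13.6%). The Dlk1 window at chr12:109452573-109452872 holds neither, and the Dio3 window holds TATAAA from base 220 and no TGACGTCA. The Meg3 window shown holds 13 CpG dinucleotides, the Dlk1 window 9 and the Dio3 window 25. The window of the further Meg3 start, at chr12:109545148-109545447, holds neither motif and 1 CpG. The windows of Rian and of Mirg, another gene of the locus, hold neither motif. These matches describe the letters only.

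Mature miRNA sequences from the same build are shown for Mir377 and for the 4 other miRNA genes with the largest difference between AM14-1C4 and AM30-3F4. One further pair is shown because both members share a seed. Capitals mark the seed, bases 2 to 8.
mmu-miR-377-3p: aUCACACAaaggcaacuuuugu (chr12:109740553-109740574, plus strand)
mmu-miR-380-3p: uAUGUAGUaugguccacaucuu (chr12:109711842-109711863, plus strand)
mmu-miR-323-3p: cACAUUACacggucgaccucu (chr12:109712558-109712578, plus strand)
mmu-miR-382-5p: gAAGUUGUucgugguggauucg (chr12:109733781-109733802, plus strand)
mmu-miR-300-3p: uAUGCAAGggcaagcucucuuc (chr12:109724363-109724384, plus strand)
mmu-miR-379-3p: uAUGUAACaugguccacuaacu (chr12:109709102-109709123, plus strand)
mmu-miR-411-3p: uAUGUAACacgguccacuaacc (chr12:109710225-109710246, plus strand)
The 40 measured miRNA genes give 76 mature arms with 74 distinct seeds. Besides miR-379-3p with miR-411-3p, only miR-376b-5p and miR-376c-5p share one. A miRNA probe set on this array lies in the hairpin region, so signal from the hairpin and from its long host transcript cannot be told apart.

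Dlk1 and the maternal transcripts formed 4 combinations among the lines of sets 1 and 4. Dlk1 was high without Meg3 in UG26.1B6, AFT024 and 2012. Both were high in UG26.3B5 and AM14-1C4. AM30-3F4 had Dlk1 near the lowest lines of its set and Meg3 between AM14-1C4 and the non-AGM lines. In BFC012, the BMC lines, AFT011 and 14F1-1 both were low. The supportive lines of AGM origin alone covered 3 of these combinations.

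**Figure D1:**
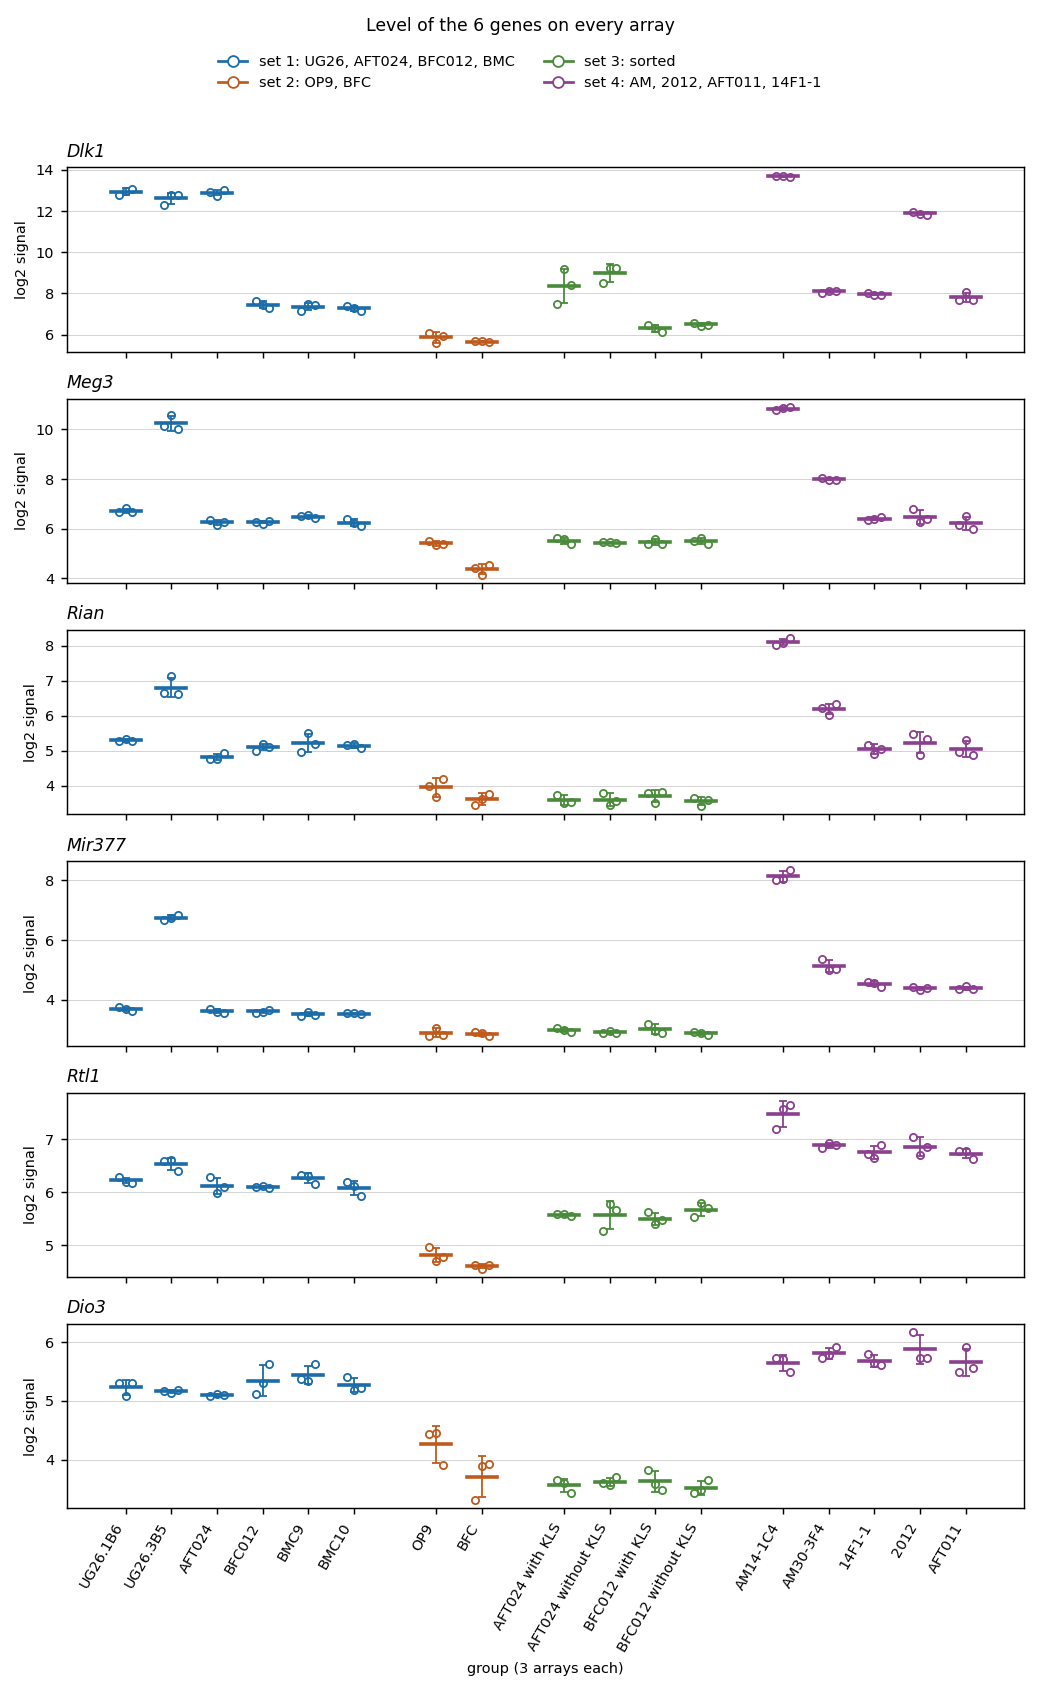
Log2 signal of the 6 genes (y axis) on every array of the 17 groups (x axis), coloured by normalisation set; open points are arrays, thick bars means and thin bars SD (n = 3). Levels are comparable only within a colour. Dlk1 stands above 11.8 in UG26.1B6, UG26.3B5, AFT024, AM14-1C4 and 2012, while Meg3 exceeds 10 only in UG26.3B5 and AM14-1C4.

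Dlk1 separated the lines of set 4 into widely spaced levels. It measured 13.68, 13.71 and 13.66 in AM14-1C4, against 8.03, 8.12 and 8.13 in AM30-3F4. All AM14-1C4 arrays lay above all others of the set. The difference between these supportive AGM lines was 5.59 ± 0.124 (log2, SE), or 48.3-fold, and passed the test (limma, adjusted p = 4.39e-27). In this comparison 31.6% of all genes passed, 15.9% as higher in AM14-1C4. 14F1-1 had Dlk1 levels of 8.03, 7.93 and 7.92, against 11.97, 11.87 and 11.82 in 2012. The difference was -3.93 ± 0.124, in a comparison where 36.6% of all genes passed. It is given with no test, since the high Dlk1 of these 2012 arrays was known when the genes were chosen. 14F1-1 was grown at 37 °C while 2012 was grown at 33 °C, so line, tissue, strain, stage and temperature cannot be told apart. AFT011 had 7.69, 8.06 and 7.66, which overlapped both 14F1-1 and AM30-3F4. The means of those 3 lowest groups differed by at most 0.29.

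Against the same 2012 arrays, and for that reason again with no test of Dlk1, the AM lines pointed opposite ways. The difference was 1.80 ± 0.124 for AM14-1C4 and -3.80 ± 0.124 for AM30-3F4. Of all genes, 32.7% and 30.0% passed in these comparisons, which were added after the values were seen. The mean of the AM lines minus 2012, -0.9995 ± 0.108, thus describes neither line.

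In set 1, Dlk1 read 12.92, 12.75 and 13.02 in AFT024, against 7.62, 7.42 and 7.31 in BFC012. BMC9 had 7.14, 7.50 and 7.43, against 7.39, 7.29 and 7.14 in BMC10. AFT024 overlapped UG26.1B6 (12.76, 12.96 and 13.10) and UG26.3B5 (12.29, 12.78 and 12.77). BFC012 and the bone marrow lines overlapped each other, and their means spanned 0.18. The BMC9 minus BMC10 difference of 0.09 ± 0.124 did not pass (limma, adjusted p = 0.731). OP9 had 6.05, 5.57 and 5.95, against 5.70, 5.67 and 5.62 in BFC, and the difference of 0.20 ± 0.124 did not pass (limma, adjusted p = 0.251). Without OP9 replicate 2 it was 0.34 and passed (limma, adjusted p = 0.0421).

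The sorted cultures gave a measurement of Dlk1 in the AFT024 and BFC012 lines on arrays that the choice of genes did not use. Without KLS cells, Dlk1 was 8.49, 9.23 and 9.22 in AFT024, against 6.58, 6.43 and 6.46 in BFC012. With KLS cells it was 7.51, 9.18 and 8.41 in AFT024, against 6.48, 6.29 and 6.12 in BFC012. AFT024 was above BFC012 on every array in either condition. The differences were 2.49 ± 0.338 without KLS cells (limma, adjusted p = 0.00147) and 2.07 ± 0.338 with them (limma, adjusted p = 0.00262). Of all genes, 7.32% passed without and 11.6% with KLS cells. Same-numbered arrays of the pair without KLS cells deviated together, and with the replicate number as a block 3152 genes passed there in place of 1459, with the same call for Dlk1.

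Contact with KLS cells was not followed by a Dlk1 change that passed the test. In AFT024 the difference, with minus without, was -0.61 ± 0.338 (limma, adjusted p = 0.649), and the groups overlapped. In BFC012 it was -0.19 ± 0.338 (limma, adjusted p = 0.921). The responses of the lines differed by -0.42 ± 0.479 (limma, adjusted p = 0.897). AFT024 with KLS cells had the widest spread of Dlk1 of all 17 groups, with an SD of 0.835.

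**Figure D2:**
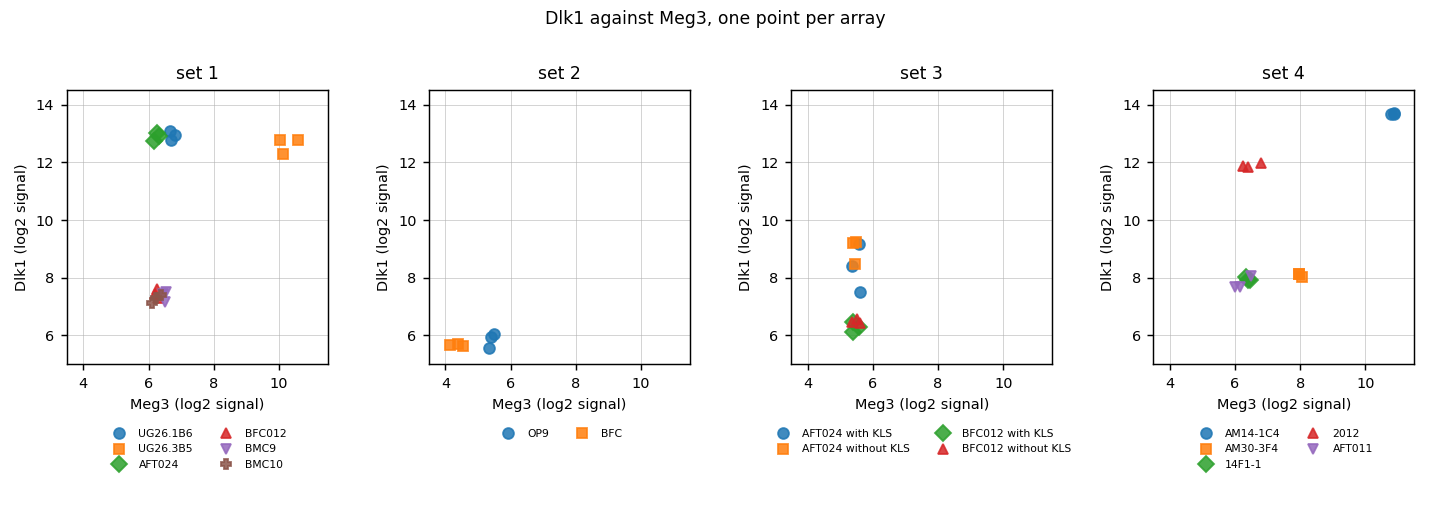
Dlk1 (y axis) against Meg3 (x axis), both log2 signal, 1 point per array, with a panel for each normalisation set and a symbol for each group. In set 4, AM14-1C4 sits at the top right, 2012 at high Dlk1 with Meg3 of 6.25 to 6.78, and AM30-3F4 at Dlk1 near 8 with Meg3 of 7.96 to 8.04.

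Meg3, the maternal long noncoding RNA, had its widest range outside the UG26 lines in the AM pair. It read 10.78, 10.86 and 10.89 in AM14-1C4, against 8.04, 7.96 and 7.96 in AM30-3F4. AM14-1C4 was 7.25-fold higher (2.86 ± 0.123, limma, adjusted p = 3.84e-19). The other groups of set 4 were lower than AM30-3F4 on every array: 6.33, 6.40 and 6.47 in 14F1-1, 6.78, 6.25 and 6.40 in 2012, and 6.15, 6.50 and 6.00 in AFT011. Those 3 groups overlapped each other.

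AM14-1C4 exceeded 2012 in Meg3 by 4.37 ± 0.123 (limma, adjusted p = 2.90e-24), which is 20.6-fold. AM30-3F4 exceeded 2012 by 1.51 ± 0.123 (limma, adjusted p = 7.40e-12), which is 2.85-fold. The mean of the AM lines stood 2.94 ± 0.107 above 2012 (limma, adjusted p = 6.49e-21; 31.5% of all genes passed). For Meg3, unlike Dlk1, both AM lines lay on the same side of 2012. The AM lines differ from 2012 in tissue, strain and stage at once, which cannot be told apart here.

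Meg3 also passed in OP9 minus BFC. It was 5.49, 5.32 and 5.39 in OP9, against 4.40, 4.14 and 4.53 in BFC. The groups did not overlap, and the difference of 1.04 ± 0.123 passed (limma, adjusted p = 1.56e-08), in a comparison where 34.4% of all genes passed. By the labels, OP9 replicates 1 and 2 were grown at 37 °C and replicate 3 at 33 °C, the temperature of BFC. Each of the OP9 arrays, replicate 3 included, stood above all BFC arrays. Line, tissue, strain and temperature cannot be told apart in OP9 minus BFC, and the part of temperature was not tested.

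In the other pairs of lines the Meg3 differences did not pass. AFT024 had 6.33, 6.16 and 6.26, against 6.27, 6.20 and 6.30 in BFC012, a difference of -0.01 ± 0.123 (limma, adjusted p = 0.970). Thus the fetal liver lines with unlike Dlk1 had overlapping Meg3. BMC9 had 6.49, 6.54 and 6.43, against 6.38, 6.22 and 6.10 in BMC10; every BMC9 array was higher, but the 0.25 ± 0.123 did not pass (limma, adjusted p = 0.191). 2012 exceeded AFT011 by 0.26 ± 0.123 (limma, adjusted p = 0.118) with overlapping arrays. It passed at 0.37 without 2012 replicate 2 (limma, adjusted p = 0.0344) and at 0.40 without AFT011 replicate 2 (limma, adjusted p = 0.0180). In the sorted stroma all 12 arrays lay between 5.36 and 5.61, and the group means spanned 0.07. The UG26 lines are described for completeness: Meg3 was 6.69, 6.81 and 6.65 in UG26.1B6, against 10.14, 10.58 and 10.02 in UG26.3B5.

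Rian, the maternal noncoding RNA that hosts C/D snoRNAs, followed Meg3. It read 8.02, 8.06 and 8.20 in AM14-1C4, against 6.20, 6.03 and 6.33 in AM30-3F4, 3.76-fold higher (1.91 ± 0.145, limma, adjusted p = 7.57e-13). AM30-3F4 was in turn 0.96 ± 0.145 above 2012 (5.47, 4.88 and 5.34; limma, adjusted p = 2.33e-06). Levels in 2012, AFT011 and 14F1-1 overlapped. OP9 had 3.99, 3.66 and 4.19, against 3.45, 3.63 and 3.77 in BFC, with overlap, and the 0.33 ± 0.145 did not pass (limma, adjusted p = 0.0776). Without OP9 replicate 2 it was 0.47 and passed (limma, adjusted p = 0.0170).

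Mir377, a miRNA gene near the Dio3 end of the cluster, was 8.01-fold higher in AM14-1C4. Its levels were 7.998, 8.06 and 8.35 there, against 5.37, 5.002 and 5.03 in AM30-3F4 (3.00 ± 0.0867, limma, adjusted p = 8.46e-24). AM30-3F4 lay above 2012 (4.42, 4.34 and 4.39) on every array, by 0.75 ± 0.0867 (limma, adjusted p = 1.35e-08). Outside comparisons with an AM line, no tested Mir377 difference passed. It was 2.81, 3.07 and 2.82 in OP9, against 2.92, 2.89 and 2.78 in BFC. AFT024, BFC012, BMC9 and BMC10 stayed between 3.46 and 3.69, and the sorted arrays between 2.83 and 3.20.

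Rtl1, a retrotransposon-derived gene of the paternal copy with a known role in placenta and muscle, was also higher in AM14-1C4. It was 7.19, 7.58 and 7.65 in AM14-1C4, against 6.84, 6.93 and 6.88 in AM30-3F4 (0.59 ± 0.100, limma, adjusted p = 1.31e-05). AM30-3F4 and 2012 (7.04, 6.69 and 6.85) overlapped, and their difference of 0.02 ± 0.100 did not pass (limma, adjusted p = 0.913). OP9 had 4.97, 4.71 and 4.78, against 4.64, 4.56 and 4.63 in BFC; the arrays did not overlap, but the 0.21 ± 0.100 did not pass (limma, adjusted p = 0.118). Rtl1 has an antisense transcript from the maternal copy that carries several of the miRNAs. Whether the probe set separates these strands is not given in the sources used here.

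Dio3 encodes the deiodinase that inactivates thyroid hormone. It was 5.73, 5.72 and 5.48 in AM14-1C4, against 5.73, 5.78 and 5.91 in AM30-3F4, and the -0.16 ± 0.149 did not pass (limma, adjusted p = 0.524). Set 1 means ran between 5.09 and 5.44 and set 3 means between 3.52 and 3.63. OP9 had 4.44, 4.45 and 3.90, against 3.31, 3.90 and 3.92 in BFC. This was the only Dio3 difference to pass, 0.55 ± 0.149 (limma, adjusted p = 0.00326), and its groups overlapped. OP9 replicates 1 and 2, labelled 37 °C, were the high arrays, while replicate 3, labelled 33 °C like BFC, fell within the BFC range. The part of temperature in this difference was not tested and cannot be told apart from line, tissue and strain. The call was lost without BFC replicate 1 (limma, adjusted p = 0.0713).

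Across the run of 47 transcripts from Meg3 to Dio3, 45 were higher in AM14-1C4 than in AM30-3F4 and passed, and 0 were lower. This compares with 15.9% of all genes called higher there and 15.8% called lower. Their median difference was 0.95, beside 0.01 for all genes. Mir666 (8.02, 8.19 and 8.28, against 8.08, 8.14 and 8.27) and Dio3 did not pass. Of the 47, 22 differed at least 2-fold and 8 at least 4-fold, with no share of all genes at these sizes to set beside them. All 3 snoRNAs and 39 of 40 miRNA genes were among those higher. In 43 of the 47, every AM14-1C4 array also lay above all 12 other arrays of set 4, which held for 9.46% of all genes.

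The largest differences besides the 6 genes lay in the miRNA cluster. Mir380 was 7.81, 7.76 and 7.27 in AM14-1C4, against 4.41, 4.59 and 4.40 in AM30-3F4 (3.15 ± 0.122, limma, adjusted p = 2.19e-20). Mir323 (2.62), Mir382 (2.41) and Mir300 (2.35) followed. The sequences printed above show that the arms shown for these 4 genes and Mir377 have unlike seeds. The snoRNA DQ267102 was at 2.33, with 11.61, 11.69 and 11.58 in AM14-1C4, against 9.29, 9.33 and 9.29 in AM30-3F4.

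AM30-3F4 carried a smaller share of the run. Against 2012, 12 of 47 transcripts passed as higher and 0 as lower. As a share this is less than the 30.0% of all genes that passed in either direction. DQ267102 stood 2.24 ± 0.130 above 2012 (limma, adjusted p = 1.22e-15), the widest of the 12. Meg3, Rian, Mir382 (0.93) and Mir377 came next, and Mir329, Mir323, Mir380, Mir341, Mir543, Mir485 and Mir300 lay between 0.26 and 0.41. In 17 of the 47, all AM30-3F4 arrays exceeded all 9 arrays of 2012, AFT011 and 14F1-1, which held for 8.24% of all genes. AM14-1C4 minus 2012 called 45 higher and 0 lower, beside 32.7% of all genes called in either direction. For the mean of the AM lines the counts were 40 and 0, beside 16.2% of all genes higher and 15.3% lower, with DQ267102 (3.40), Mir382 (2.14), Mir380 (1.95) and Mir300 (1.43) the largest besides the 6 genes among those whose groups did not overlap. Mir323 (1.65) passed with overlap.

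**Figure D3:**
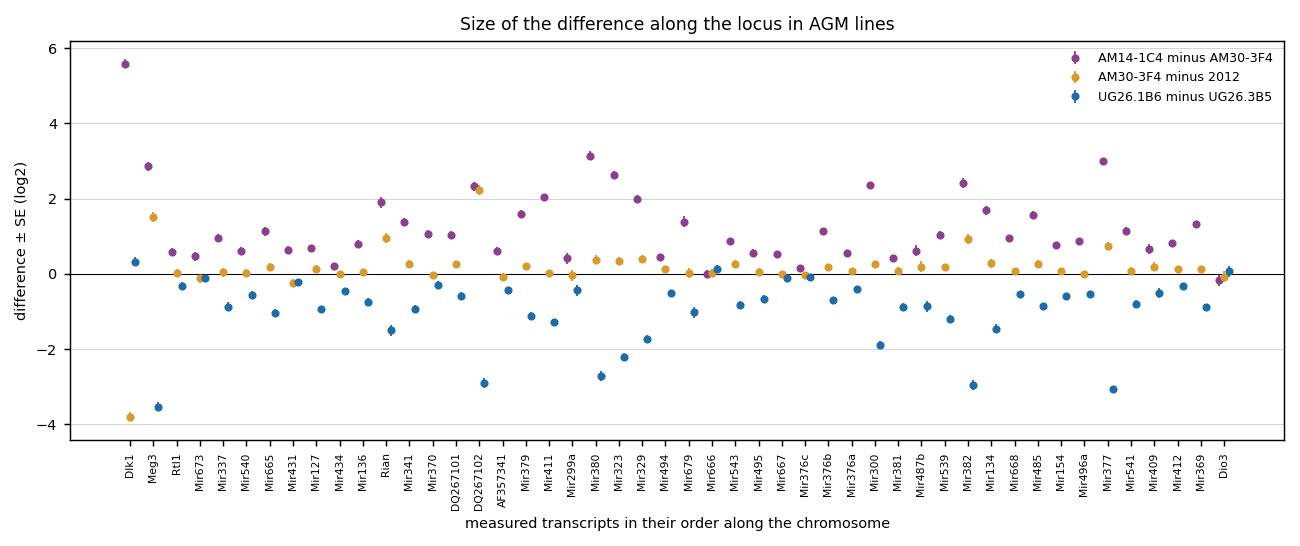
Difference ± SE (log2, y axis) of 48 transcripts in their order along the chromosome (x axis) for AM14-1C4 minus AM30-3F4, AM30-3F4 minus 2012 and UG26.1B6 minus UG26.3B5. The AM and UG26 differences run as near mirror images from Meg3 to Mir369, with Dio3 close to 0 in both, while Dlk1 differs by 5.59 in the AM pair and 0.33 in the UG26 pair.

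The profile along the run was similar in the AM and UG26 pairs, which share no array. In the UG26 pair, used in choosing the genes, 45 of 47 transcripts had a lower mean in UG26.1B6. Their median difference was -0.81, beside 0.03 for all genes. The 45 counts directions with no test, so the 8.56% of all genes that passed in that comparison is not a like measure. Over the 47 transcripts the AM14-1C4 minus AM30-3F4 differences and the UG26.1B6 minus UG26.3B5 differences had a Pearson r of -0.92 and a Spearman rho of -0.85. The points share the locus, overlapping host transcripts and probe design, so this is a description across transcripts, which are not independent. As a further description of the values behind the choice of genes, in 40 of the 47 all UG26.3B5 arrays lay above all 15 other arrays of set 1 (2.24% of all genes), while all UG26.1B6 arrays lay above those of AFT024, BFC012, BMC9 and BMC10 in 1 of the 47, Meg3 (4.08% of all genes). The 15 transcripts at least 2-fold lower in UG26.1B6, also picked on those values, were all among the 22 of 47 at least 2-fold higher in AM14-1C4. No share of all genes stands beside these counts. With the OP9 minus BFC differences, the AM14-1C4 minus AM30-3F4 differences had a Pearson r of 0.27 and a Spearman rho of 0.08. The line with the higher run was the less supportive one in the UG26 pair, while both AM lines are supportive. Dlk1 broke the parallel, being high in both UG26 lines and in only 1 of the AM lines.

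In OP9, 5 of the 47 transcripts passed as higher than in BFC and 0 as lower, beside 17.5% of all genes called higher and 16.9% called lower. They were Meg3, Dio3, DQ267102 (5.62, 5.60 and 5.99, against 4.85, 5.10 and 5.05; 0.74 ± 0.130, limma, adjusted p = 1.83e-05), Mir134 (0.35) and Mir485 (0.24). The share of the run called, 5 of 47, was below the background. The median over the run was 0.06, beside 0.01 for all genes.

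Between the fetal liver lines 2012 and AFT011, 4 of 47 passed as higher in 2012 and 0 as lower, where 27.6% of all genes passed, 13.4% as higher and 14.1% as lower. These were Mir679 (0.48), Mir431 (0.38), Mir540 (0.35) and Mir666 (0.28). The count rests on single arrays, being 0 without 2012 replicate 1 or without AFT011 replicate 3, 9 without 2012 replicate 2 and 8 without AFT011 replicate 2. In 14F1-1 minus 2012, 0 were higher and 2 lower, Mir667 (-0.29) and Mir127 (-0.25), beside 18.1% of all genes higher and 18.5% lower. That count was 0 without 2012 replicate 1, 6 without 2012 replicate 2, 4 without 2012 replicate 3 and 1 without 14F1-1 replicate 2.

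Elsewhere limma called 0 of the 47. This was so in AFT024 minus BFC012 (28.5% of all genes passed; 0 of 47 at an unadjusted p under 0.05) and BMC9 minus BMC10 (15.5%; 2 of 47). It was also so in sorted AFT024 minus BFC012 without KLS cells (2 of 47) and with them (0 of 47). The contrasts with minus without KLS cells called 0 in AFT024 (0.351% of all genes; 1 of 47 unadjusted) and in BFC012 (0.883%; 1 of 47). The difference of these responses (0.0401%; 1 of 47) and the fetal liver difference minus the bone marrow difference (25.5%; 2 of 47) also gave 0. In the sorted set the group means of the 47 spanned at most 0.47, whereas those of Dlk1 spanned 2.68.

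**Figure D4:**
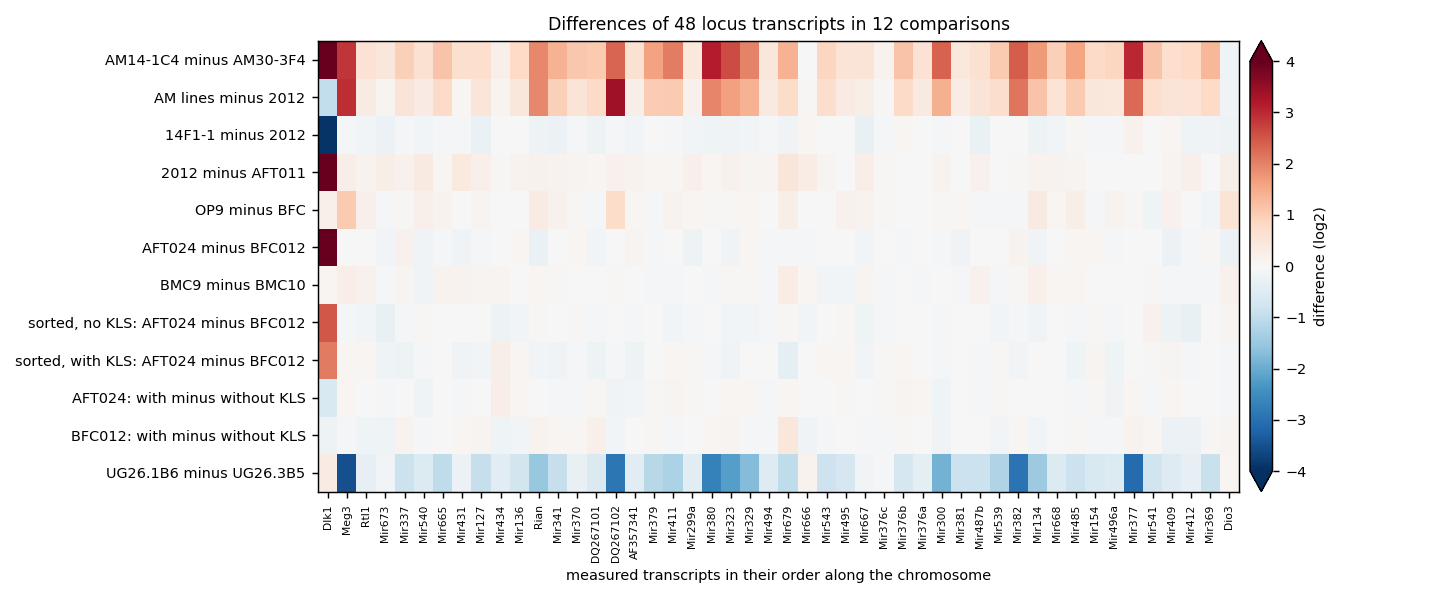
Differences (log2, colour) of 48 transcripts in chromosome order (x axis) in 12 comparisons (y axis); colours saturate at 4 and -4, which Dlk1 exceeds in the AM pair and both confluent fetal liver pairs. Colour runs along the whole row in the AM and UG26 comparisons, whereas in fetal liver and sorted rows it is strong for Dlk1 alone.

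Protein-coding neighbours were read 10 to each side of the locus. In AM14-1C4 minus AM30-3F4, 5 of 10 before Dlk1 passed as higher and 0 as lower, beside 15.9% and 15.8% of all genes, with Eml1 (1.32), Begain (0.90) and Wdr25 (0.57) largest. Eml1 binds microtubules. After Dio3, 1 was higher and 1 lower, Zfp839 (0.44) and Cinp (-0.36). In the UG26 pair 0 of 20 neighbours passed in limma (3 at an unadjusted p under 0.05), where 8.56% of all genes passed.

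Genes that act on or with the locus were counted from lists. The list counts for AM14-1C4 minus AM30-3F4 stand beside 15.9% of all genes called higher and 15.8% called lower, and those for OP9 minus BFC beside 17.5% and 16.9%. Of 20 genes of imprint maintenance, 7 were higher and 4 lower in AM14-1C4 than in AM30-3F4, led by the 5-methylcytosine oxidase Tet1 (1.82), Aff3 (1.18), which binds the imprinting control regions of this locus, and the Polycomb subunit Eed (-0.88). Their median of 0.08 stood beside 0.01 for all genes, and the share called lower was near that of all genes. OP9 had 1 higher and 11 lower than BFC, beside 17.5% and 16.9% of all genes, with the imprint-protecting zinc finger protein Zfp57 at -1.36, Aff3 at 1.06 and the Polycomb subunit Suz12 at -0.89 (median -0.29, beside 0.01). Both the sorted comparisons had 0 higher, with 3 lower without KLS cells and 6 lower with them, where 7.32% and 11.6% of all genes passed, Zfp57 (-0.94 and -0.79) and Ezh2 (-0.64 and -0.84) among them.

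Notch genes were listed because DLK1 resembles Notch ligands. In AM14-1C4 minus AM30-3F4, 4 of 17 were higher and 4 lower (median -0.00, beside 0.01), beside the 15.9% and 15.8% of all genes. The ligand Jag1 (-2.22) and the target genes Hey1 (-1.86) and Hes1 (-1.58) were the largest. In 2012 minus AFT011, 2 were higher and 3 lower, beside 13.4% and 14.1% of all genes, and the same 3 genes led, Jag1 at -2.54, Hey1 at -1.63 and Hes1 at -1.42. In AFT024 minus BFC012, 4 were higher and 3 lower, where 28.5% of all genes passed, with Jag1 at -1.26, Notch3 at 0.97 and Dlk2, the paralogue of Dlk1, at -0.79. In sorted stroma without KLS cells 1 was lower, Jag1 (-1.84), and 1 higher, Rbpj (0.78), the DNA-binding partner of Notch. With KLS cells 0 were higher and 1 lower. Of all genes, 7.32% passed without and 11.6% with KLS cells. OP9 minus BFC had 6 higher and 1 lower, beside 17.5% and 16.9% of all genes. 14F1-1 minus 2012 had 2 higher and 5 lower, beside 18.1% and 18.5%. BMC9 minus BMC10 had 3 higher and 1 lower (15.5% of all genes passed), and the UG26 pair 1 higher and 2 lower (8.56%).

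Of 13 genes of DLK1 processing and fat cell formation, 5 were higher and 2 lower in AM14-1C4 than in AM30-3F4, beside 15.9% and 15.8% of all genes, with Sox9 (2.85), Cebpb (1.28) and Pparg (-1.13) largest. OP9 had 10 higher and 0 lower than BFC, beside 17.5% and 16.9% of all genes, with Fabp4 (6.54), Cd36 (6.31) and Lpl (5.96) largest and a median of 1.69, beside 0.01. 14F1-1 had 9 higher and 0 lower than 2012, beside 18.1% and 18.5% of all genes, Lpl (5.28) and Fabp4 (3.02) ahead. BMC9, whose Dlk1 difference did not pass, had 7 higher and 0 lower than BMC10 (median 0.42), where 15.5% of all genes passed. 2012 had 4 higher and 3 lower than AFT011, beside 13.4% and 14.1% of all genes. AFT024 had 3 higher and 4 lower than BFC012, where 28.5% of all genes passed, with Lpl (4.57), Pparg (2.01) and Sox9 (1.02) largest, and a median of 0.03. Of 10 thyroid hormone genes, 5 were higher and 2 lower in AM14-1C4 than in AM30-3F4, led by the receptor gene Thra (1.06), and 0 passed in OP9 minus BFC (limma; 1 at an unadjusted p under 0.05).

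Other cell types were checked beside these results. Of 10 measured hematopoietic markers, AM14-1C4 had Lyz2 higher (4.00) and Runx1 lower (-0.61) than AM30-3F4, and the list mean ran from 6.67 to 6.73 in AM14-1C4, against 6.31 to 6.37 in AM30-3F4. Ptprc was 5.51 in AM14-1C4 and 5.58 in AM30-3F4. The endothelial and hepatoblast lists had 0 genes passing in this pair (limma; 0 at an unadjusted p under 0.05). The part of Lyz2-expressing cells in the AM difference was not tested. In AFT024 minus BFC012, 0 of 8 hepatoblast genes passed as higher, 2 passed as lower and 6 did not pass, where 28.5% of all genes passed. The 2 were the epithelial genes Cdh1 (-2.68) and Foxa2 (-2.28), and their part in the Dlk1 difference was not tested.

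Finally, genes with a pattern like Dlk1 or Meg3 were sought over the 17 group means, each centred within its set, among 5008 genes. Closest to Dlk1 were the phosphodiesterase Pde10a (r = 0.97), the planar polarity gene Prickle1 (0.95), the transcription factor Nfatc4 (0.90), Mettl27 (0.87) and the IGF-binding protein gene Igfbp3 (0.86). Closest to Meg3 were DQ267102 (0.98), Rian (0.97) and DQ267101 (0.91) of the same locus, then the adenylyl cyclase Adcy4 (0.90) and the cytokine Il6 (0.87). Il6 was 9.10 in AM14-1C4 and 5.88 in AM30-3F4, beside 4.57 in 2012. It did not follow Meg3 in the UG26 pair, with 5.63 in UG26.1B6 and 5.62 in UG26.3B5. Adcy4 had 7.35 and 7.57 there, where Meg3 means were 6.72 and 10.25. Among the 6 genes themselves, Meg3 had r of 0.98 with Mir377, 0.97 with Rian and 0.93 with Rtl1. Dlk1 and Meg3 had 0.53, and Dio3 had between -0.29 and -0.02 with the others. These values rest on a few high groups and are descriptions.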

How the data were processed

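RNA was measured on 51 Affymetrix mouse gene 1.0 ST arrays (17 groups of 3) from 100 ng of total RNA, per the labels. The deposited values are log2 signals per probe set, made by the authors; the submitters' processing notes name RMA and Partek, whose versions are not given in the sources used here. No detection calls were used. Array medians show 4 separately normalised sets of 18, 6, 12 and 15 arrays.

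Of 35556 probe sets, 21789 named 1 symbol and were used. The highest-mean probe set was kept for each of 19938 genes, 999 of which had several. For the locus, 3 probe sets naming several genes were left out. Genes of low signal were kept. The tests came from limma 3.58.1 (R 4.3.3, with the data.table package at 1.17.8, statmod 1.5.0), two-sided, with 1 fit over 39 confluent arrays and 1 over 12 sorted arrays, and a mean per group. P-values were adjusted by Benjamini-Hochberg over all 19938 genes, with a threshold of 0.05. SEs come from the spread pooled over a fit. With 3 arrays per group, array number is what limits precision. The scripts were tested on simulated data. Tables and plots used Python 3.11.15, pandas 2.3.3 and matplotlib 3.10.9.

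The 6 genes, the comparisons and the lists were chosen with earlier results of these data known. Besides the 6 genes, up to 4 other transcripts of the locus per comparison (largest differences that passed with no overlap of groups) and up to 3 genes of each list or flank (largest that passed) were named, and the 5 genes most like Dlk1 and Meg3 among those spanning at least 1 log2 unit, with clone-like symbols and small RNA families named Mir, Snora or Snord left out. Transcripts named where a count was 5 or fewer, the 12 of AM30-3F4 minus 2012, and Ptprc were chosen after their values were seen. Alternatives covered the arrays in the fit, a replicate block, a low-signal filter, all probe sets, joint quantile normalisation, robust trended moderation and leaving out each replicate.

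Same-numbered arrays deviated together (all 3 correlations over 0.1) in the UG26 pair (0.535, 0.327 and 0.468), the BMC pair (0.323, 0.116 and 0.435) and the sorted pair without KLS cells (0.671, 0.517 and 0.466), and in none of the other pairs among 11 checked. The highest correlations between arrays of different numbers were 0.103, 0.194 and 0.501 in these pairs. In the BMC pair and the sorted pair without KLS cells this exceeded a same-numbered value, so the check does not establish pairing there. Pairing rests on this check of the data, since the labels name no shared batch.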

Additional observations from a re-analysis of the deposited data

How the results depend on the processing

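The 45 calls of the AM14-1C4 minus AM30-3F4 run ranged from 42 to 45 when single replicates were left out, and were 8 of the 9 transcripts left by the low-signal filter. For the mean of the AM lines minus 2012, 40 calls became 37 to 41 without single replicates, 6 of 9 under the filter and 12 for AM30-3F4 alone. Dlk1 in that comparison reversed to 1.80 for AM14-1C4 alone. The median of the UG26 run, -0.81, was -0.56 under the filter, which left 9 transcripts, and -0.84 to -0.69 without single replicates. In OP9 minus BFC, 5 calls became 3 with the replicate number as a block, 2 under the filter, 8 with joint quantile normalisation and 3 to 5 without single replicates (3 without OP9 replicate 1, BFC replicate 1 or BFC replicate 2). Dio3 there had an adjusted p of 0.0534 in limma with the block, and Rian passed with joint quantile normalisation (limma, adjusted p = 0.0424). For 2012 minus AFT011, 4 calls became 1 when only these groups were fitted, 1 with the block and 0 to 9 without single replicates. For 14F1-1 minus 2012, 2 calls became 0 to 6. The sorted pair with KLS cells went from 0 to at most 1, without AFT024 with KLS replicate 1. The fetal liver minus bone marrow difference had 1 call with only its set and 1 with the block. The cause of these changes was not tested, except that the filter leaves fewer transcripts. By the check given under processing, same-numbered arrays deviated together only in the pairs named there. In those pairs the block changed no call of the 6 genes or count of the run.

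Among all genes, the sorted pair without KLS cells went from 1459 calls to 3152 with the block and 884 when only its groups were fitted, and 749 to 2241 without single replicates. The UG26 pair had 1707, with 828 in its own set, 748 in its own groups and 1122 without UG26.1B6 replicate 2. The BMC pair had 3082, with 1900 and 1296. The sorted pair with KLS cells had 2314, with 1381 to 2732 without single replicates. KLS cells in AFT024 gave 70, with 11 in its own groups, 0 with the block and 22 to 149 without single replicates. In BFC012 they gave 176, with 58 with the block and 70 to 373. The difference of responses gave 8, with 0 with the block, 2 under joint quantile normalisation, 5 with robust moderation and 0 to 46. For single genes, 487 of the values under settings other than leave-one-out kept their direction and side of the threshold. Values behind the choice of genes were counted there if they moved within the spread. A further 9 were counted as moved. These were tested values that changed sign without passing in either fit, or values behind the choice of genes that moved beyond the spread. Of the rest, 1 changed sign with a pass and counts as reversed, 1 newly passed and 2 no longer passed. Without single replicates, 557 of these values stayed the same by this rule, 31 were counted as moved and 0 reversed. Meg3 in AFT024 minus BFC012, which ran from -0.05 to 0.04, was among those moved by a change of sign. Another 4 newly passed (Dlk1 and Rian in OP9 minus BFC, and Meg3 in 2012 minus AFT011 under both omissions given in the report) and 2 no longer passed. These last were Dio3 in OP9 minus BFC and Rtl1 in the mean of the AM lines minus 2012 (limma, adjusted p = 0.0736 without 2012 replicate 2). The files give no signal over background, so a low level cannot be told from none.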
